A study of Mus musculus with 28 samples.

Results

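Implants taken 14 days after inoculation from mice bearing the 4T1 mammary carcinoma were compared with implants taken at day 7. The comparison used 11 of the series' 28 samples, chosen by their labels: 8 tumor-bearing mice at day 14 and 3 at day 7, with 1 sample per mouse. All mice of the series were female BALB/c and carried a porous scaffold of polycaprolactone (PCL), a degradable polyester, under the skin. The tumor-bearing mice had received 4T1-luc2-tdTomato cells, a mouse mammary carcinoma line with a luciferase and a red fluorescent reporter. The healthy mice, 3 at day 7 and 8 at day 14, had implants of the same days and no tumor, although the labels list the tumor line for them too. An age is not given in the sources used here, and every tumor came from the same transplanted line.

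A scaffold of this kind fills with leukocytes, fibroblasts, vessels and fat as the host responds to a foreign body, and the study's title uses the name synthetic niche for it. The 4T1 tumor is known for raising the output of granulocytes from the bone marrow and for sending myeloid cells into distant tissues. Neutrophils make their granule proteins in order while they mature. Elastase and proteinase 3 of the primary granules come first, in promyelocytes, then lactoferrin and cathelicidin of the secondary granules, in myelocytes, and these messages are low or absent in mature blood neutrophils. The calprotectin messages S100a8 and S100a9 and the chemokine receptors persist in mature cells.

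RNA was measured with the TaqMan OpenArray Mouse Inflammation Panel, a set of 648 quantitative PCR assays for 584 genes. Each value below, unless another scale is named, is a log2 relative quantity, which is the mean quantification cycle (Cq) of the authors' reference genes minus the Cq of the assay, so that 1 unit is a doubling of template. A Cq was missing in 884 of the 7128 reactions of these 11 samples (12.4%). Day 7 samples had 560 to 579 assays with a Cq and day 14 samples 489 to 586, with a median of 582.5. Replicate 21 of day 14 stood apart with 489. The mean number of assays with a Cq was 569 at day 7 and 567 at day 14 (exact permutation test, two-sided, p = 0.958, adjusted over 3 measures 0.958). Day 7 mice had a mean of 22.1 ± 0.371 (SD, n = 3) for the median raw Cq, and the corresponding day 14 value was 21.8 ± 0.217 (SD, n = 8; exact permutation test, two-sided, p = 0.133, adjusted 0.227; the smallest p that 165 splits allow is 0.00606).

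The labelled tissue, an infiltrate of immune, stromal and epithelial cells, was checked against marker genes. Ptprc, the leukocyte antigen CD45, ran from 0.18 to 0.61 in all 8 day 14 mice and was 0.20 and -0.03 in the 2 day 7 mice with a value. The matrix gene Fn1, which encodes fibronectin, ran from 3.22 to 4.37 over the 11 mice. In the mice with a value, both markers were thus near or above the level of the reference genes. Of the keratins, Krt7 had a value in all 11 mice (-7.24 to -5.31) and Krt8 in 9, whereas Krt1, a keratin of the epidermis, had a value in 1. In such bulk samples, fewer cells of a type and less RNA per cell cannot be told apart.

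The samples were run on 7 physical panels named in the labels, called A to G here. Panels A and B each held 1 tumor-bearing mouse of day 7 and 1 of day 14, and the third day 7 mouse was on panel C. Of the day 14 mice, replicates 15 to 18 filled panel G, which held no other group, and replicates 21 and 22 were on panels E and F. Among these 11 mice, a day 7 and a day 14 value can be compared on 1 panel only on A and B, and the values within these panels are given beside the main results. Panels C, E and F link the days indirectly, through healthy and day 21 mice on the same panels, in a fit with the panel as a fixed block.

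Of 571 assays tested, 1 rose from day 7 to day 14 (0.175%) and 0 fell (0%), by limma with Benjamini-Hochberg adjustment at an adjusted p under 0.05. At an unadjusted p under 0.05 there were 28 higher (4.9%) and 21 lower (3.68%). The assay that rose was Ela2 (now Elane), neutrophil elastase. Prtn3 (proteinase 3) and Camp (cathelicidin), both also granule proteins of maturing neutrophils, and Il27, an interleukin subunit of activated myeloid cells, had the next smallest p-values in this direction and missed the threshold. All 8 day 14 mice lay above all day 7 mice, among those with a value, for 14 assays (2.45%), and all below for 10 (1.75%). The median difference over all tested assays was 0.01, and the median standard error was 0.31.

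That count depended on single mice. It was 3 without day 7 replicate 6 (Ela2, Il27 and Prtn3), 2 without day 7 replicate 4 (Ela2 and Il8ra), 3 without day 14 replicate 16 (Ela2, Il27 and Prtn3) and 3 without replicate 17 (Camp, Ela2 and Prtn3). Without day 14 replicate 18, and likewise without replicate 21, it was 2 (Ela2 and Prtn3). Ela2 was called in each of these fits. Prtn3, with no Cq in day 7 replicate 6, could not be tested without day 7 replicate 4 or without replicate 5.

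**Figure D1:**
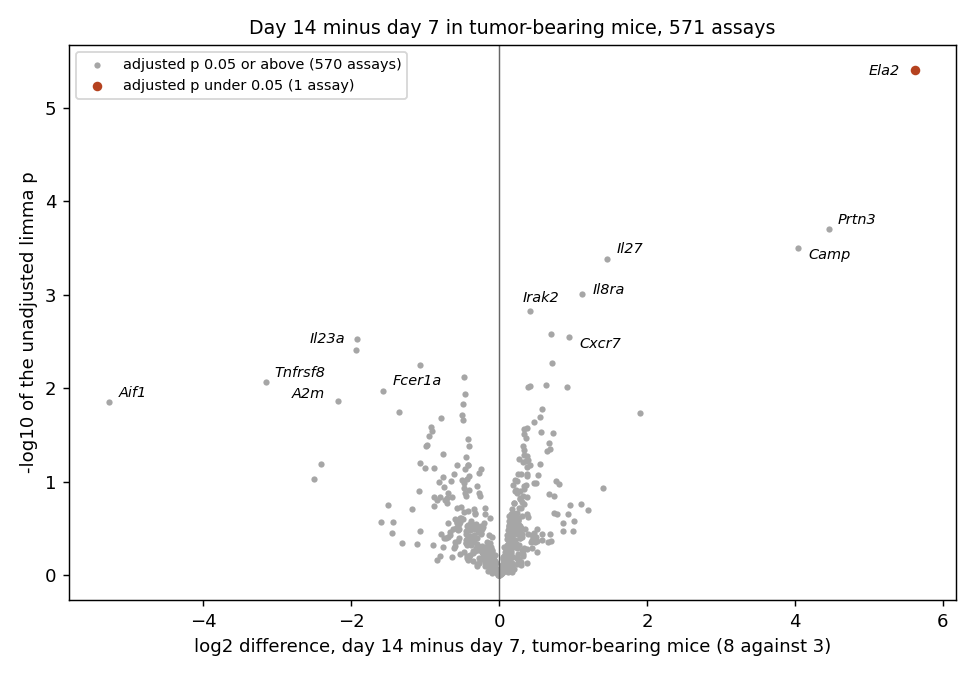
Log2 difference of day 14 minus day 7 in tumor-bearing mice (x axis) against minus log10 of the unadjusted limma p (y axis), with 1 point for each of 571 assays. Ela2, in color at the top right, is the only assay past an adjusted p of 0.05, and Prtn3, Camp and Il27 lie next below it.

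Ela2 encodes neutrophil elastase, a serine protease of the primary granules. At day 7 its values were -11.28, -14.56 and -15.01. At day 14, 7 of 8 mice had a value, with a lowest of -9.91, a median of -8.65 and a highest of -6.55, and replicate 21 had none. The groups did not overlap. The log2 difference was 5.63 ± 0.879 (SE), a 49.4-fold increase with a 95% interval from 13.8 to 177 (limma, adjusted p = 0.00225). Within panel A the day 14 mouse was 4.72 above the day 7 mouse and within panel B 8.01 above it. Day 7 reactions were late, at a mean raw Cq of 32.5 against 26.6 at day 14. The call ended when each missing reaction took the largest Cq measured, which gives replicate 21 a value (log2 difference 3.98 ± 2.77, SE; limma, adjusted p = 0.9995). It held in the other 21 alternatives, with adjusted p from 0.000346 to 0.0496.

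Prtn3 encodes proteinase 3, the closest relative of elastase in the same granules. It was -10.81 and -10.26 in 2 day 7 mice and had no Cq in the third. Day 14 values ran from -8.03 to -3.70 with a median of -6.15, so the lowest day 14 mouse was above both day 7 mice. The log2 difference was 4.46 ± 0.929 (SE), or 22-fold with an interval from 5.60 to 86.1 (limma, adjusted p = 0.0573). It was 5.67 within panel A and 5.14 within panel B.

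Camp encodes cathelicidin, an antimicrobial peptide of the secondary granules. The 3 day 7 mice lay close together at -9.20, -9.71 and -9.16. Day 14 mice ran from -7.10 to -3.23 with a median of -6.27, all above day 7. The log2 difference was 4.04 ± 0.946 (SE), or 16.4-fold with an interval from 4.22 to 64.0 (limma, adjusted p = 0.0586), and it was 2.45 within panel A and 6.22 within panel B.

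For these 3 genes the day 14 mice themselves fell into a lower and a higher set. The 4 mice on panel G had Ela2 from -9.91 to -8.65, while the 3 others with a value had -6.82 to -6.55. Prtn3 was -8.03 to -7.17 on panel G and -5.14 to -3.70 on the other panels. For Camp, replicate 19 on panel A, at -6.75, lay among the panel G mice (-7.10 to -6.23), and replicates 20 to 22 had -3.52 to -3.23. Over all tested assays, the mice on other panels were all above those on panel G for 16 of 569 (2.81%) and all below for 20 (3.51%). The part of the panel in this split was not tested. Without the panel G mice the log2 differences were larger, at 6.94 for Ela2, 5.76 for Prtn3 and 5.06 for Camp, and all 3 passed the threshold (limma, adjusted p = 0.000525, 0.000253 and 0.0202). Leaving out mice with low values raises the day 14 mean, so the larger differences follow from the split and are no separate support. Over the 20 alternatives that could test Prtn3, its adjusted p by limma ran from 0.000253 to 0.544. That of Camp ran from 0.0136 to 0.998 over 22 alternatives.

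**Figure D2:**
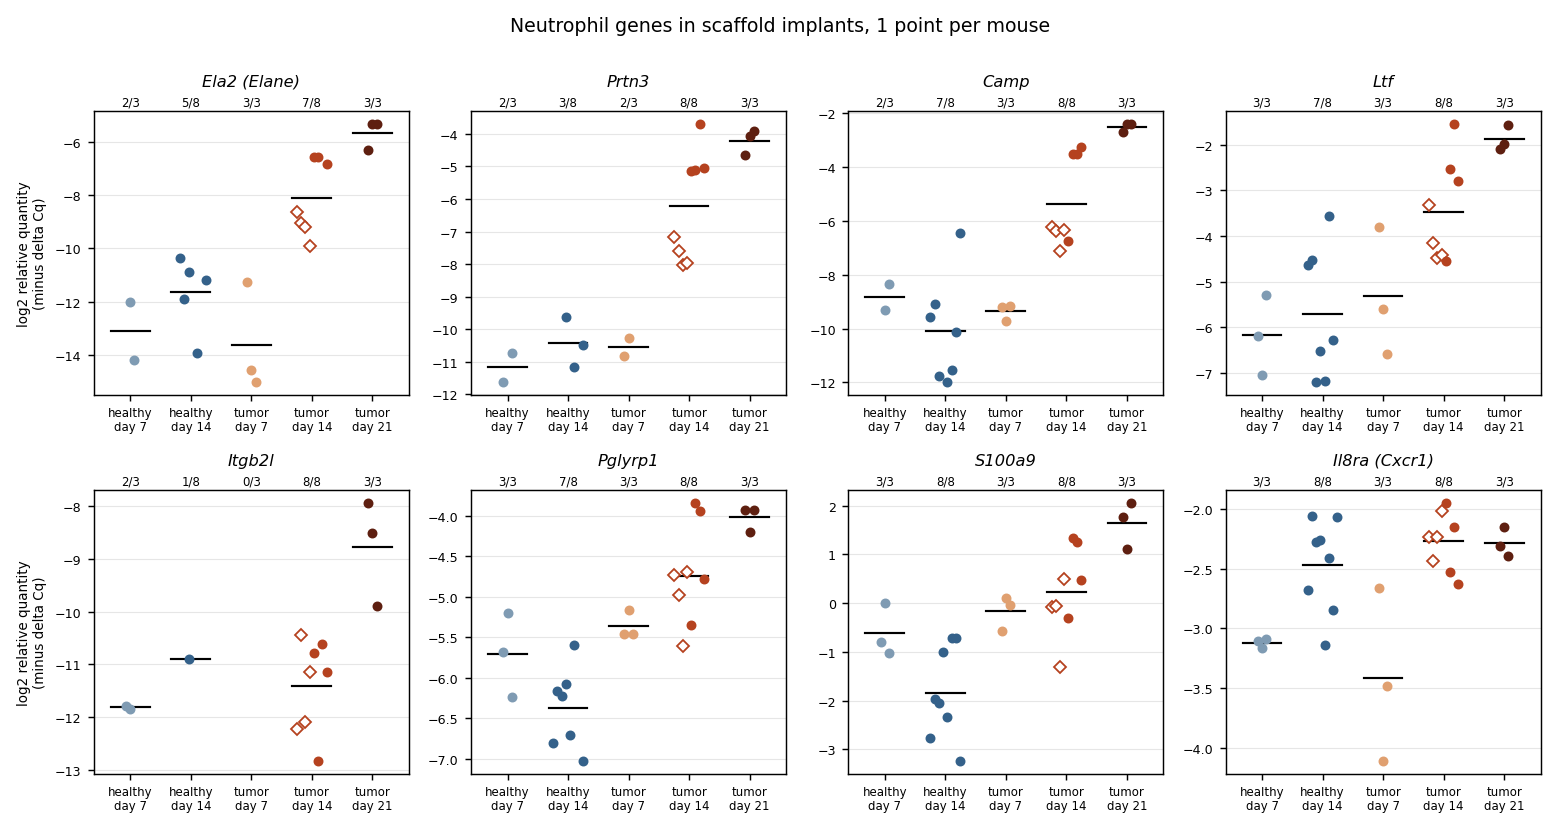
Log2 relative quantity (y axis) of 8 neutrophil genes by group, with 1 point per mouse, a line at the group mean and the number of mice with a value above each group. Open diamonds are the 4 day 14 tumor-bearing mice on panel G, which lie below the other day 14 mice for Ela2 and Prtn3.

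The sequences just upstream of these 3 genes are shown because the genes had the 3 highest estimates of the panel. RefSeq's tables on GRCm38.p6 hold each of the 3 start sites. The 250 bases before each start are given 5′ to 3′ on the gene's strand, with GAGGAA in capitals, a core that PU.1 and other ETS factors of myeloid cells can bind. Elane lies at chr10:79886062-79886311 (plus strand), Prtn3 at chr10:79879417-79879666 (plus strand) and Camp at chr9:109849457-109849706 (minus strand).
Elane: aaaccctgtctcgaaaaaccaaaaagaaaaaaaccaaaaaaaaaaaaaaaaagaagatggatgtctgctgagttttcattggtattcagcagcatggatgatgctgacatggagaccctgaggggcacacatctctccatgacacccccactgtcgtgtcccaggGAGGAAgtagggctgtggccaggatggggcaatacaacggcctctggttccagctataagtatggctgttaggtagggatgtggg
Prtn3: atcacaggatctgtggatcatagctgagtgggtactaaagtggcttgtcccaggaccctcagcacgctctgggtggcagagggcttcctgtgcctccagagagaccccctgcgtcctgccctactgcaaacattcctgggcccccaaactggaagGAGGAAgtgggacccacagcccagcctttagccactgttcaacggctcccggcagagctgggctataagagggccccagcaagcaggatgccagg
Camp: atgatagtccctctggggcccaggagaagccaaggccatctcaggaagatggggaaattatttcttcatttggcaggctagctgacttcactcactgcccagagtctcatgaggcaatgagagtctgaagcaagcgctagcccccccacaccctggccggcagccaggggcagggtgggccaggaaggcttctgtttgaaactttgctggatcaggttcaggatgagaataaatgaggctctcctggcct
GAGGAA occurred once in the Elane window, 85 bases before the start, and once in the Prtn3 window, 95 bases before it, and these letters are not in the Camp window on either strand. Of 32851 RefSeq windows of this length, 23.3% held it. AACNG, a core of MYB sites, was in all 3 windows and in 74.2% of all windows, and the C/EBP core TTNNGNAA was in none of the 3 and in 36.8% of all. A match is a string of letters and was not tied to binding here. In the RefSeq order, Prtn3, Elane and Cfd are neighboring protein-coding genes on chromosome 10. Cfd, which encodes the fat cell product adipsin, had a log2 difference of -1.31 ± 1.73 (SE; limma, adjusted p = 0.864), against 4.46 and 5.63 for its neighbors.

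The list of neutrophil granule and calprotectin genes had 9 assays on the panel, of which 8 could be tested and 1 rose. All 8 estimates were above 0, with a median of 1.28, against 295 of 571 above 0 (51.7%) and a median of 0.01 over all tested assays. The list's median was 0.65 without day 7 replicate 4 and 0.71 without day 7 replicate 5. Each of these is over 7 assays, because Prtn3 could not be tested there, so the set of assays differs from the main median. It was 2.18 when missing reactions took the largest Cq, and 0.42 over the 2 assays measured in all 28 samples. Ltf, which encodes lactoferrin of the secondary granules, was -3.80, -5.59 and -6.58 at day 7 and -4.54 to -1.55 at day 14, with a median of -3.73. The groups overlapped, and within panel A the day 14 mouse was 0.74 below the day 7 mouse (log2 difference 1.90 ± 0.749, SE; limma, adjusted p = 0.406). Pglyrp1, a granule peptidoglycan receptor, was -5.46, -5.17 and -5.46 at day 7 and -5.60 to -3.84 at day 14 (log2 difference 0.65 ± 0.312, SE; limma, adjusted p = 0.549).

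The calprotectin genes were the lowest in the list. S100a9 was -0.56, -0.04 and 0.10 at day 7 and ran from -1.31 to 1.34 at day 14, with a median of 0.21, so that the day 14 mice lay on both sides of the day 7 mice. Its log2 difference was 0.47 ± 0.506 (SE), and both S100a8 assays gave 0.26 ± 0.639 and 0.33 ± 0.614 (limma, adjusted p from 0.841 to 0.928). The estimates thus ran from 4.04 to 5.63 for Camp, Prtn3 and Ela2 to 0.26 to 0.47 for calprotectin, a contrast between genes that was not tested.

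Itgb2l, an integrin beta subunit known from bone marrow neutrophils, could not be tested because no day 7 tumor-bearing mouse gave a Cq. It had a value in 8 of 8 day 14 mice, from -12.83 to -10.44 with a median of -11.14, which are late reactions. Only 1 other assay, for the complement regulator Cd46, had 0 of 3 values at day 7 and at least 6 of 8 at day 14, and no assay had 3 of 3 at day 7 and 2 or fewer at day 14. Among healthy mice Itgb2l had a value in 2 of 3 at day 7 and 1 of 8 at day 14.

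Of 10 assays for receptors and oxidase genes of mature neutrophils, 0 rose and 0 fell, with a median of 0.10. Il8ra (now Cxcr1), a receptor for neutrophil-attracting chemokines, was -2.67, -4.10 and -3.48 at day 7 and -2.63 to -1.95 at day 14, with a median of -2.24. The groups did not overlap, although the nearest mice, at -2.67 and -2.63, were close (log2 difference 1.12 ± 0.298, SE; limma, adjusted p = 0.113). Without day 7 replicate 4 the difference was 1.49 and passed (limma, adjusted p = 0.0343, over all alternatives 0.0343 to 0.999). Il8rb (now Cxcr2), the main such receptor of mouse neutrophils, had 0.29 ± 0.335 (SE), and Ltb4r1, the leukotriene B4 receptor, had -0.78 ± 0.313 (SE; limma, adjusted p = 0.854 and 0.407).

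Il27 encodes the p28 subunit of interleukin 27, which macrophages and dendritic cells release. It was -10.29, -10.32 and -9.37 at day 7, and -9.17 to -8.04 at day 14 with a median of -8.52. All 8 day 14 mice lay above the 3 day 7 mice, on panel G (-9.17 to -8.15) and on the other panels (-8.86 to -8.04) alike. The log2 difference was 1.46 ± 0.355 (SE), or 2.76-fold with an interval from 1.66 to 4.59 (limma, adjusted p = 0.0586). It was 1.86 within panel A and 1.46 within panel B. Ebi3, the partner subunit, had 0.07 ± 0.171 (SE) and the receptor chain Il27ra -0.01 ± 0.206 (SE).

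The other genes with the smallest p-values among higher estimates differed by about 1 log2 unit or less, and none passed. Irak2, a kinase of Toll-like receptor signaling, was -2.65, -2.69 and -3.02 at day 7 and -2.51 to -2.20 at day 14, without overlap (0.42 ± 0.116, SE; limma, adjusted p = 0.142). Hdac4, a histone deacetylase, was -3.73, -3.62 and -3.69 at day 7 and -3.35 to -2.23 at day 14 by the assay named by the rule (0.71 ± 0.211, SE; limma, adjusted p = 0.187). The other two Hdac4 assays gave -0.17 and 0.28, so the assays of this gene disagree. Cxcr7 (now Ackr3), a scavenging receptor for CXCL12, had 0.94 ± 0.284 and the leptin receptor Lepr 0.71 ± 0.232 (SE; limma, adjusted p = 0.187 and 0.272). Eda2r, Gusb and Il10ra had 0.64, 0.42 and 0.39 (limma, adjusted p = 0.31 each).

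No assay passed among lower estimates. Fcer1a, the alpha chain of the high-affinity IgE receptor of mast cells and basophils, was -8.00, -8.78 and -8.83 at day 7. At day 14 it ran from -10.70 to -9.79 with a median of -9.95 in 6 mice, and replicates 21 and 22 had no Cq. The groups did not overlap, and the day 14 mouse was 1.92 lower within panel A and 1.92 lower within panel B. The log2 difference was -1.56 ± 0.558 (SE; limma, adjusted p = 0.321). It passed when only these 11 samples were fitted and the panel block was left out (limma, adjusted p = 0.045, over all alternatives 0.045 to 0.9995). Of the 9 assays of the mast cell, basophil and eosinophil list, 6 had lower and 3 higher estimates, against 276 of 571 lower over all assays. Besides Fcer1a, the lower ones included Kit, the stem cell factor receptor of mast cells, at -0.30 ± 0.965 (SE). Il5 had -0.43, its receptor chain Il5ra -0.75, and the eosinophil receptor Ccr3 -0.17 and -0.02 by 2 assays. The higher ones were Prg2, an eosinophil granule protein, at 1.0 ± 1.02 (SE), Fcer1g at 0.03 and Kitl at 0.01.

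Il23a encodes the p19 subunit of interleukin 23, made by activated dendritic cells and macrophages. By its first assay it was -9.21, -9.02 and -8.86 at day 7 and -12.35 to -8.81 at day 14, with a median of -11.40. Of the 8 day 14 mice, 7 lay below day 7, and replicate 20 lay above it. The log2 difference was -1.93 ± 0.598 (SE; limma, adjusted p = 0.224). The second assay had no Cq in day 7 replicate 4 and day 14 replicates 15 and 18, and gave -1.36 ± 0.528 (SE; limma, adjusted p = 0.406). Il12b, which encodes the p40 chain shared with interleukin 12, gave -0.45 ± 0.544 and -0.19 ± 0.454 (SE) by 2 assays.

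Of 17 assays of eicosanoid synthesis and receptors, 12 had lower estimates, 6 of them for the single gene Alox5, against 276 of 571 over all assays. None of the 17 fell, the median was -0.27, and the same list had -0.17 in healthy mice. Without the panel G mice the median was -0.16. Alox5 encodes 5-lipoxygenase, the first enzyme of leukotriene synthesis, and was measured by 6 assays. By the assay with the smallest p it was -3.42, -3.56 and -3.24 at day 7 and -4.27 to -3.60 at day 14, without overlap (-0.47 ± 0.161, SE; limma, adjusted p = 0.31). The other five assays also had lower estimates, from -0.72 to -0.12. Ptgs2, the inducible cyclooxygenase, had -1.11 ± 1.51 (SE; limma, adjusted p = 0.875).

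Of the chemokines that attract monocytes and eosinophils, 9 of 10 assays had lower estimates, with 0 past the threshold and a median of -0.36. The same list had a median of -0.47 in healthy mice between the same days. Ccl6 was 2.12, 2.50 and 2.03 at day 7 and 1.12 to 2.14 at day 14 (-0.51 ± 0.202, SE; limma, adjusted p = 0.407). Ccl8 was 2.06, 2.49 and 2.18 at day 7 and ran from -1.58 to 2.20 at day 14, with the 4 panel G mice at 1.10 or below (-1.07 ± 0.548, SE; limma, adjusted p = 0.593). The neutrophil-attracting chemokines and growth factors had 7 of 9 estimates lower and a median of -0.39, which was -0.23 without day 7 replicate 6 and 0.01 on panels A and B alone. Among them Cxcl2, a ligand of Cxcr2, had -1.0 ± 0.527 (SE) and the granulocyte factor Csf3 -1.18 ± 0.881 (SE; limma, adjusted p = 0.607 and 0.811). The 2 higher estimates of this list were those of the Csf2 assays, at 0.77 and 0.96 (limma, adjusted p = 0.663 and 0.79).

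Among the other genes with lower estimates, Tnfrsf8 rested on late reactions and Aif1 on a very early reaction in a single mouse. Tnfrsf8, the CD30 receptor, was -16.36, -16.37 and -14.63 at day 7 and -21.24 to -16.48 at day 14, at a mean raw Cq of 34.6 and 37.5 (-3.15 ± 1.08, SE; limma, adjusted p = 0.31). Aif1, a macrophage marker, had the lowest estimate of the panel (-5.27 ± 1.98, SE; limma, adjusted p = 0.367), and day 7 replicate 4 was at 14.44 while the other day 7 and day 14 tumor-bearing mice with a value lay from -2.02 to -1.08. The reference genes of day 7 replicate 4 had a mean Cq of 18.9, and its Aif1 reaction came 14.44 cycles before that. Whether this reaction was valid was not tested. Without that mouse the Aif1 difference was 0.19. A2m, a protease inhibitor, was -6.32, -5.49 and -4.32 at day 7 and -10.20 to -5.50 at day 14, with overlap (-2.17 ± 0.818, SE; limma, adjusted p = 0.367). The assay for both Lefty1 and Lefty2, inhibitors of Nodal signaling, had -1.07 ± 0.354, Il4ra -0.48 ± 0.184 and the glycolytic enzyme Pgk1 -0.46 ± 0.168 (SE; limma, adjusted p from 0.272 to 0.367).

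**Figure D3:**
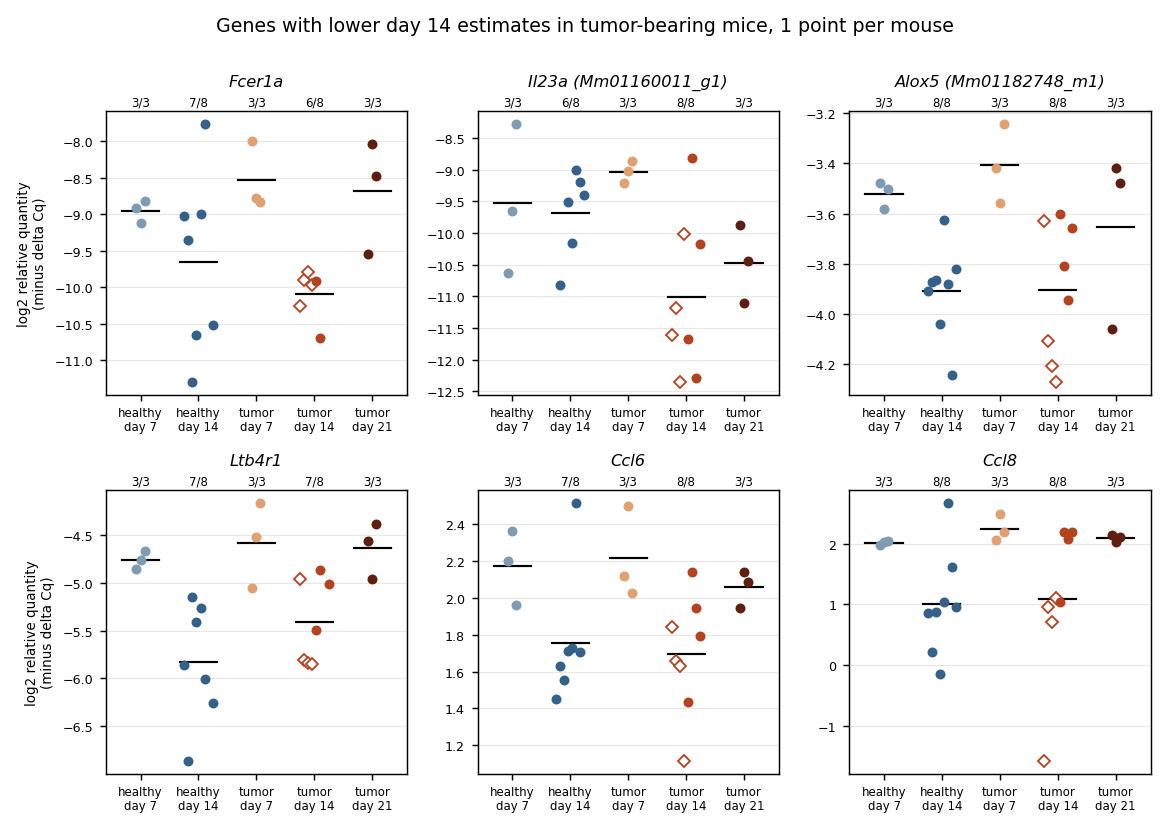
Log2 relative quantity (y axis) of 6 genes with lower day 14 estimates, by group, with 1 point per mouse, a line at the group mean and the number of mice with a value above each group. The tumor-bearing day 14 mice lie below day 7 without overlap for Fcer1a and this Alox5 assay.

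Adipocyte and metabolic hormone genes had the lowest median of the lists with at least 5 tested assays. It was -0.63 over 10 assays, of which 0 passed, 7 had lower and 3 higher estimates. The higher ones were Lepr at 0.71 and the assays of Pparg at 0.25 and 0.38. The list's median was -0.40 without day 7 replicate 4 and -0.36 without replicate 5, each over 8 assays, with Lep among those that could not be tested. It was -1.15 with the panel as a fixed block. Their values were spread within day 7. Adipoq, which encodes adiponectin, was -2.57 and -2.32 in day 7 replicates 4 and 5 and -7.53 in replicate 6. The 8 day 14 mice lay between these, from -6.83 to -4.46 (-1.44 ± 1.54, SE; limma, adjusted p = 0.841). Retn (resistin) and Cfd showed the same arrangement, at -9.52 and -7.10 in replicate 6, and both were lower at day 14 within panel A and within panel B. Of 536 tested assays with a value in these 4 mice, 167 were lower within both panels (31.2%) and 147 higher within both (27.4%). Lep, the leptin gene, was -8.23 and -6.88 at day 7 with no Cq in replicate 6, and -12.44 to -8.65 in the 7 day 14 mice other than replicate 21 (-2.40 ± 1.23, SE; limma, adjusted p = 0.593).

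**Figure D4:**
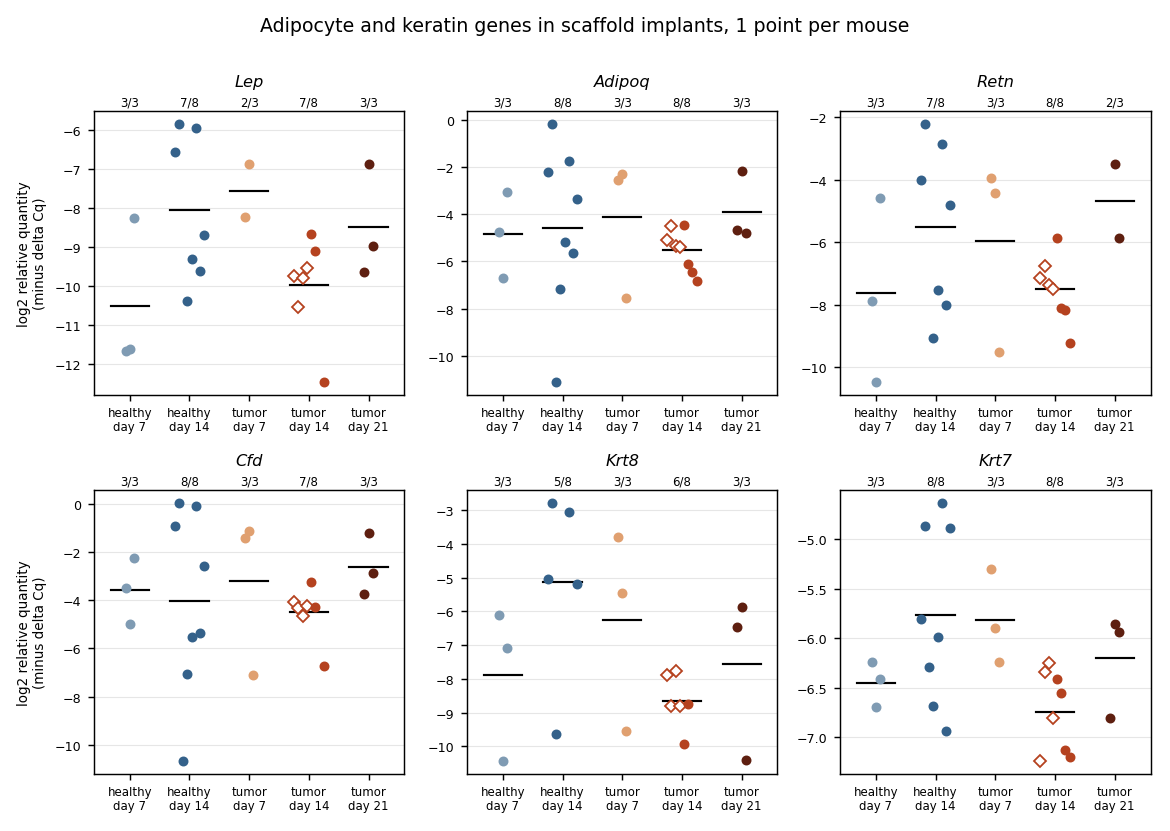
Log2 relative quantity (y axis) of 4 adipocyte genes and 2 keratins by group, with 1 point per mouse, a line at the group mean and the number of mice with a value above each group. Day 7 replicate 6 lies apart from the other day 7 tumor-bearing mice for Adipoq, Retn, Cfd and Krt8.

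Of the keratins, Krt7 was -5.31, -5.90 and -6.24 at day 7 and -7.24 to -6.25 at day 14, all 8 mice below day 7 (-0.91 ± 0.391, SE; limma, adjusted p = 0.464). Krt8 was -3.79, -5.47 and -9.54 at day 7 and -9.94 to -7.76 in 6 day 14 mice, with no Cq in replicates 21 and 22 (-2.50 ± 1.42, SE; limma, adjusted p = 0.663). Day 7 replicate 6 was thus low for Krt8 as for the adipocyte genes. The list of epithelial and tumor cell markers had 0 of 5 assays past the threshold and a median of -0.22, which was -0.056 without day 7 replicate 4. The panel has no assay for the reporters of the tumor line.

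Of 15 assays of interferon signaling and response, 14 had higher estimates, against 51.7% of all tested assays, and 0 rose. The median was 0.33, against 0.03 in healthy mice, and was 0.18 without day 7 replicate 6. Jak2, a receptor-linked kinase, had 0.33 ± 0.152 (SE), Ifnar2, a chain of the type I interferon receptor, 0.30 ± 0.166 (SE), and the chemokine Cxcl9 0.69 ± 0.75 (SE; limma, adjusted p = 0.519, 0.644 and 0.841). Ifng, which T and NK cells make, had 0.33 ± 0.678 and 1.41 ± 0.86 (SE) by 2 assays, both late.

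The remaining lists with at least 5 tested assays had medians from -0.42 to 0.16, with no call. Monocyte and macrophage markers had a median of -0.02 over 6 assays, with Cd14 at -0.07 ± 0.171 (SE) and the monocyte receptor Ccr2 at 0.03 ± 0.318 (SE). T cell markers had a median of -0.00 over 7 assays, complement -0.04 over 21, chemokine receptors -0.01 over 25, Toll-like receptor and NF-kappaB genes 0.16 over 20 and interleukin receptor chains 0.12 over 29. Medians were 0.11 over 29 assays for the TGF-beta and BMP superfamily, 0.06 over 26 for the TNF superfamily, 0.11 over 15 for lymphocyte-attracting chemokines and 0.01 over 7 for coagulation and kinin genes. Lower medians were those of type 2 cytokine signaling (-0.42 over 12), histamine, adenosine and purine receptors (-0.36 over 7), dendritic cell genes (-0.31 over 8) and matrix genes (-0.23 over 5). The median of type 2 cytokine signaling ran from -0.52 to 0.13 over the alternatives, so its sign was not stable. Alternative and classical macrophage activation had -0.19 over 14 and -0.19 over 25, the IL-1 family -0.17 over 16, mast cell, basophil and eosinophil markers -0.17 over 9, and endothelial and checkpoint genes both -0.06. The cytotoxic, B cell and muscle lists had 1 or 2 assays, with no call. Housekeeping genes had a median of -0.06 over 21 assays, from -0.46 for Pgk1 to 0.42 for a Gusb assay, and no list other than the granule genes held a called assay.

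**Figure D5:**
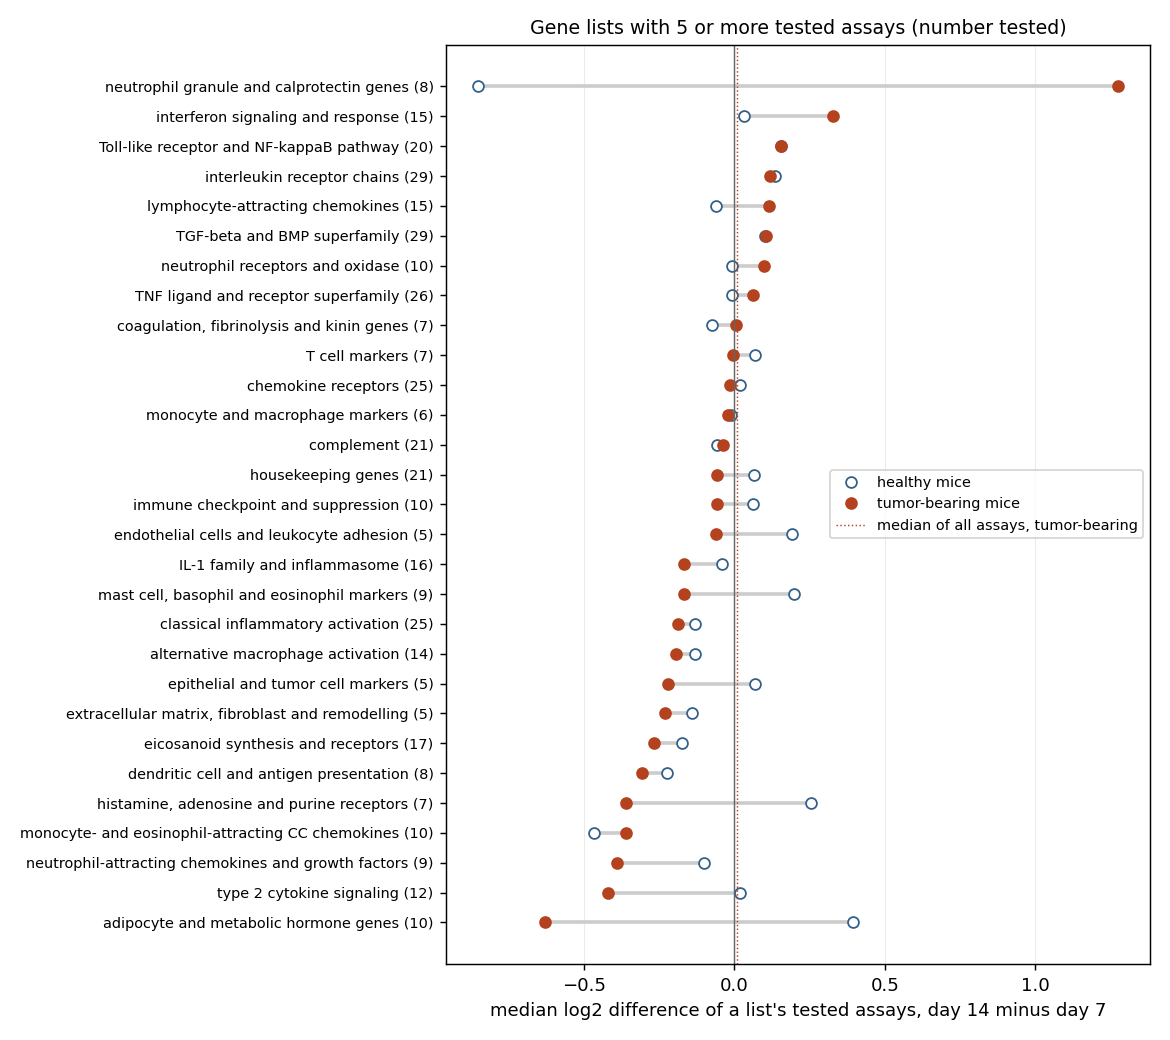
Median log2 difference of day 14 minus day 7 (x axis) for the lists with 5 or more tested assays (y axis, with the number tested), in tumor-bearing mice (filled) and healthy mice (open). Granule and calprotectin genes have the highest median in tumor-bearing mice, at 1.28, and the lowest in healthy mice, at -0.85.

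The same days were compared in healthy mice to ask whether the implant's own age gave the same values. Of 572 assays, 0 passed in either direction (0%), and 74 had an unadjusted p under 0.05 (12.9%) by limma. Camp was -9.30 and -8.33 in the 2 healthy day 7 mice with a value and -11.97 to -6.45 in 7 day 14 mice, a log2 difference of -1.25 ± 1.12 (SE; limma, adjusted p = 0.703). Prtn3 had a value in 2 of 3 and 3 of 8 healthy mice, and Ela2 in 2 of 3 and 5 of 8, with differences of 0.70 and 1.31. Both S100a8 assays and S100a9 had lower healthy estimates, at -1.47, -1.05 and -1.20.

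The difference between the tumor-bearing and the healthy change was tested as an interaction. Of 564 assays, 0 passed (0%) and 21 had an unadjusted p under 0.05 (3.72%) by limma, so no change is called particular to tumor-bearing mice. The difference was 5.29 ± 1.45 (SE) for Camp, 4.31 ± 1.37 for Ela2, 3.76 ± 1.42 for Prtn3, 1.86 ± 0.496 for Il27 and 1.31 ± 0.441 for Pglyrp1 (limma, adjusted p = 0.268, 0.497, 0.838, 0.268 and 0.497). By 1 Ifng assay the day 14 minus day 7 changes were 0.33 in tumor-bearing and -0.13 in healthy mice. By the other, later assay they were 1.41 and -1.93. The difference of the change was 3.33 ± 1.11 for this later Ifng assay and 1.57 ± 0.609 for the cytokine Tnfsf15 (SE; limma, adjusted p = 0.497 and 0.838). In the other direction, Lep had -4.85 ± 1.61, Krt8 -5.25 ± 2.02, Krt7 -1.64 ± 0.547, the histamine receptor Hrh1 -1.58 ± 0.419, the costimulator Tnfsf4 -1.49 ± 0.63 and the coagulation starter F3 -1.07 ± 0.371 (SE; limma, adjusted p from 0.268 to 0.992).

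Tumor-bearing mice at day 21, 3 in number, are set beside the day 14 mice, which both comparisons share. Camp was -2.68, -2.39 and -2.41, all above the highest day 14 mouse at -3.23. Ela2 was -6.31, -5.32 and -5.33, again above every day 14 mouse with a value, and Prtn3 was -4.64, -4.07 and -3.92, within the day 14 range. The log2 differences of day 21 minus day 14 were 2.65 ± 0.946, 2.38 ± 0.884 and 1.82 ± 0.799 (SE; limma, adjusted p = 0.289, 0.289 and 0.408), and 0 of 583 assays passed (0%), with 60 at an unadjusted p under 0.05 (10.3%). The day 21 mice were on panels C, E and F. Day 14 replicates 15 to 18, among the lower day 14 mice for Camp, Ela2 and Prtn3, were on panel G. The part of the panel in the differences between days 14 and 21 was not tested. The granule and calprotectin list had a median of 1.70 over this step. Il27 had the opposite sign, at -0.84 ± 0.415 (SE; limma, adjusted p = 0.477).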

How the data were processed

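Of 28 implants, the 8 tumor-bearing day 14 and 3 day 7 samples were compared; groups, days and panels came from the labels. The authors deposited raw Cq values and normalized values, which are linear ratios to reference genes, per the file headers. From the values, the reference is the mean Cq of 5 assays, out of 16 marked as reference, and their names are not reported here. A change in these 5 shifts every assay of a sample. The software that called Cq is not given in the sources used here.

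The log2 of the deposited ratio was fitted by lmFit and eBayes of limma 3.58.1 (R 4.3.3), using 1 mean per group over all 28 samples and the panel as a random block (duplicateCorrelation with statmod 1.5.0, correlation 0.0535), and Benjamini-Hochberg adjustment over the assays tested. No value was imputed. Tests were limited to assays measured in 50% or more of a group's samples (609 assays) and in 2 or more samples of each group compared. Precision is limited by the number of mice, and separate mice are replicates per the labels. The model was tested on simulated data.

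The members and gene lists were chosen with earlier results of these data known. Named genes were the 12 smallest p-values per direction, 6 per direction for the interaction and 2 per list, with second assays. Other list members, Itgb2l, Cd46, Ebi3, Il27ra and Il12b were chosen after their values were seen. Alternatives changed the block, samples, scaling, references, filter, variance prior and missing values, and left out each of the 11 mice. The authors' table of tumor-bearing against healthy fold changes was not used here.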

Additional observations from a re-analysis of the deposited data

Results flagged for a closer look

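Of 69 results, 4 had a day 14 tumor-bearing mouse far from the other 7 mice by Dixon's criterion, which chance alone meets in about 1 in 20 groups. Day 14 replicate 15, on panel G, was lowest for C1qb, a subunit of complement C1q, at -1.88 on the log2 scale against a group median of 0.54. The same mouse was lowest for the chemokine Ccl8 at -1.58 against a median of 1.07, and for the muscle calcium channel gene Ryr1 at -7.36 against -4.51. Day 14 replicate 21, on panel E, had 489 assays with a Cq against a median of 582.5. Healthy day 14 replicate 13, on the same panel, had 475. The healthy and tumor-bearing day 21 samples on that panel had 584 and 566.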

How the results depend on the processing

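There were 23 alternatives, 11 of which left out 1 mouse. Of 79 single gene results, 60 kept their direction and their side of the threshold in all alternatives that gave a value. Of 32 list medians, 24 moved in every alternative by less than the median standard error of the list's single assays. The count of assays past the threshold between days 7 and 14, 1 in the main model, was 3 with the panel as a fixed block, 3 without the panel G mice, 3 with a trended robust variance prior and 3 with 6 other reference assays (a choice made after seeing the data), each time Camp, Ela2 and Prtn3. It was 3 in a fit of the 11 samples alone with no panel block (Ela2, Fcer1a and Il27), 2 on panels A and B alone and 2 with raw Cq centred on the sample median. It was 0 when the largest Cq stood in for missing reactions, where Ela2 had 3.98 (limma, adjusted p = 0.9995), and 0 over the 312 assays measured in all samples, which leave out Ela2. By limma, 30 and 21 assays had an unadjusted p under 0.05 in these fits. Leaving out single mice gave counts from 1 to 3. The count for the interaction, 0 in the main model, was 1 with a fixed block (Ela2), 1 without panel G (Prtn3), 1 with missing reactions at the largest Cq (Itgb2l) and 1 without reactions over 4 cycles from their group median (Krt8), and 0 when any 1 of these 11 tumor-bearing mice was left out. No healthy or day 21 mouse was left out.

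Reversed estimates were as follows, and the cause was not tested beyond what each setting changes. With missing reactions at the largest Cq they were 0.60 for Hrh1 in the interaction, -0.21 for Ccl19, 0.62 for the second Il23a assay, -1.75 for Klkb1, 0.63 for Lep and -2.15 for Tgfbr1. On panels A and B alone they were 0.072 for Adora3, 0.095 for Cx3cr1 and -0.29 for Prg2. The B cell gene Cr2 gave 0.049 with a fixed block, 0.17 without panel G and 0.16 without day 7 replicate 5 (from -0.54 to 0.16 over the fits without 1 mouse), and Klkb1 gave -0.13 with a fixed block. Aif1 gave 0.18 without reactions over 4 cycles from their median and 0.19 without day 7 replicate 4 (from -7.99 to 0.19 over the fits without 1 mouse). Each of the 28 samples has a replicate number of its own, so mice were blocked by panel and could not be paired by number.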
